A study of Homo sapiens with 2 samples.

Results

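Interferon-stimulated genes are the genes that a cell switches on after an interferon binds its receptor. A list of 36 such genes was followed here among the 36601 genes of the matrices: ISG15 and ISG20, the IFIT and OAS families, the MX and GBP GTPases, the IFITM proteins with BST2 and LY6E, the sensors DDX58, IFIH1 and IFI16 with the kinase EIF2AK2, the factors STAT2, IRF1, IRF7 and IRF9, and IFI6, IFI27, IFI35, IFI44, IFI44L, SAMHD1, PLSCR1, SP100 and TRIM22. All 36 were present in both matrices. The list names genes known to respond to interferon and has no threshold on a measured value, although it was drawn up when earlier results of these data were known. A ratio between libraries was computed for the 20 genes with 50 or more UMIs over both, called measured members below, and the other 16 were taken as a sum. A UMI (unique molecular identifier) marks 1 captured RNA molecule, and CPM stands for UMIs of a gene per 1000000 UMIs of the library.

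Type I interferons bind the IFNAR receptor, whose kinases JAK1 and TYK2 phosphorylate STAT2 among other factors. The complex that STAT2 forms with IRF9 binds a promoter element called the interferon-stimulated response element (ISRE), and the genes that carry it encode proteins that block several steps of virus growth. Some members, such as BST2, IFI16 and SP100, are also transcribed in many blood cells without added interferon. IRF1 and several other members also respond to interferon gamma through a promoter element called GAS.

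The samples were SP11-treated cells, which received SP11 at 0.8 µM for 48 h, and untreated control cells collected at the same time, each as 1 single-cell RNA library on the 10x Genomics platform. SP11 is a small-molecule inhibitor of the chaperone HSP90, and both libraries were labelled MOLT4, an established human T-cell acute lymphoblastic leukemia line. With 1 library for each condition no test between conditions was possible. All intervals are 95% intervals for counting error alone, and do not cover variation between cultures or libraries. Those on UMI counts also leave out the spread of UMIs over cells, so they are too narrow where few cells hold many UMIs. The words higher and lower give the direction between these 2 libraries, and a ratio of 1.5 was used as a size and not as a call.

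After the filter on barcodes, 852 SP11 cells held 9498802 UMIs with a median of 10488.5 per cell, and 1053 control cells held 19375163 UMIs with a median of 17711. A gene with 0 UMIs could thus lie as high as 0.316 CPM in SP11 and 0.155 CPM in control cells, the level of 3 UMIs. The T-lineage markers went against the label: of 30, 18 were at 0 in SP11 and 16 in control cells, with CD3D, CD3G, CD7, CD8A and LEF1 at 0 in both, and the list summed to 68.2 CPM in SP11 and 53.2 CPM in control cells, with only TRGC1 and TRGC2 above 10 CPM. Monocyte or macrophage markers summed to 2589 CPM in SP11 and 1143 CPM in control cells, with 14 and 12 of 30 genes above 10 CPM and 4 at 0 in each. Granulocyte precursor markers summed to 1244 CPM in SP11 and 2348 CPM in control cells, and markers of plasmacytoid dendritic cells, a cell type that makes type I interferon, to 54.7 and 64.4 CPM. The cells are therefore called SP11 and control cells below, and the part of these marker differences in the results was not tested. The 2 libraries shared 114 barcodes, 109 of them among the cells kept. Without those 109 barcodes in either library, the counts of members past 1.5-fold given below were the same and the pooled log2 ratio of the measured members was 0.26.

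The promoters of 4 members are shown as examples. IFIT3, IFI6 and ISG15 were picked by their values, higher in SP11 cells and uneven from cell to cell. STAT2 was added because it encodes a factor of the response. Each line gives the 250 bases before the transcription start in RefSeq's annotation of GRCh38.p14, 5′ to 3′ on the gene's strand. Capitals mark matches to the ISRE core GAAANNGAAA on either strand, so a match on the other strand reads TTTCNNTTTC.
IFIT3 (chr10:89327747-89327996, + strand): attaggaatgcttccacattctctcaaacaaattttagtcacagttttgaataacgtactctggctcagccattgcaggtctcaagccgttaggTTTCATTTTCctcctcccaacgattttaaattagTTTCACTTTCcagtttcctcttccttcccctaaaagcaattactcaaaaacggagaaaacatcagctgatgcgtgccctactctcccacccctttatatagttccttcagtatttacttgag
ISG15 (chr1:1013247-1013496, + strand): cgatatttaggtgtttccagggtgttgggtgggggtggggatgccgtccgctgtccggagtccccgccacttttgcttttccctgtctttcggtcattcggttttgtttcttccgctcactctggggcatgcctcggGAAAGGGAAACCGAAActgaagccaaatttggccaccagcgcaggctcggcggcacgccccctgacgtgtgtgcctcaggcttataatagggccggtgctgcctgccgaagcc
IFI6 (chr1:27672193-27672442, - strand): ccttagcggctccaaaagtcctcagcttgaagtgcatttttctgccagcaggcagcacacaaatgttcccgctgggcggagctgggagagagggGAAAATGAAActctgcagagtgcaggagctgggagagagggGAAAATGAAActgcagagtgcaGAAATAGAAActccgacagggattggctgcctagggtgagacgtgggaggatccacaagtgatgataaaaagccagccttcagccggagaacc
STAT2 (chr12:56360108-56360357, - strand): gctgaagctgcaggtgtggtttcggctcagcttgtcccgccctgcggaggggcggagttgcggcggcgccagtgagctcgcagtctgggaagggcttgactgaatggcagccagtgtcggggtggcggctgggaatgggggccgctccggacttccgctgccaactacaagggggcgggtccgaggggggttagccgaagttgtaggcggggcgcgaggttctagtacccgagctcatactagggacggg

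IFIT3 and IFI6 both carried the core GAAAATGAAA, IFI6 in 2 copies and IFIT3 once on the other strand, and ISG15 carried 2 overlapping matches. No match was present in the STAT2 window. A window of 300 bases around the start was found in RefSeq for 27 of the 36 members, and 18 of these 27 (66.7%) held the ISRE core in at least 1 window, against 4.38% of the 27305 genes with a window (3.57% of all 35116 windows). The GAS letters TTCNNNGAA were found in 9 of 27 members (33.3%), against 9.38% of all genes with a window (7.66% of all windows). In BST2, IFI27, IFITM1 and MX1 a GAS match shared bases with an ISRE core match, so the shares of both motifs are not independent. No window was used for GBP2, IFIT2, IFITM2, IRF7, LY6E, MX2, OAS2, OASL and TRIM22. Of the measured members, 8 held the ISRE core (ISG15, IFIT3, OAS3, BST2, IFIH1, EIF2AK2, IFI6 and PLSCR1), with a median log2 ratio of 0.82, and 7 had a window without it (DDX58, IFI16, STAT2, IRF1, IRF9, SAMHD1 and SP100), with a median of 0.35. The ranges of both sets overlapped, from -0.53 (EIF2AK2) to 1.87 with the core and from -0.55 to 0.88 (SAMHD1) without it. The 5 measured members without a window, MX2, IFITM2, LY6E, IRF7 and TRIM22, had a median of -0.16 and ranged from -2.33 to 1.33. A match is a description of the letters and not a bound site.

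The measured members were higher in SP11 cells as a whole, by a small amount and with members on both sides. Their UMIs summed to 1056 CPM in SP11 and 893 CPM in control cells, a pooled log2 ratio of 0.24 (0.21 to 0.28). The median log2 ratio of the 20 members was 0.37, against -0.35 for all 12128 genes with 50 or more UMIs. A ratio of 1.5 or more in favour of SP11 was reached by 7 of the 20 members, beside 10.7% of all measured genes. A ratio of 1.5 or more in favour of control was reached by 2 members, beside 38.4% of all. Because the median gene lay below 0, sizes were also taken from that median as the zero point, and then 13 members passed upward (22.5% of all genes) and 1 passed downward (24.3% of all genes). The intervals of 13 members lay above 0, as did those of 22.9% of all measured genes, those of 5 lay below it, as did 53.5% of all, and those of 2 spanned it. IFITM2 and BST2, the members with the most UMIs, did not set the pooled value, which was 0.21 without them.

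**Figure D1:**
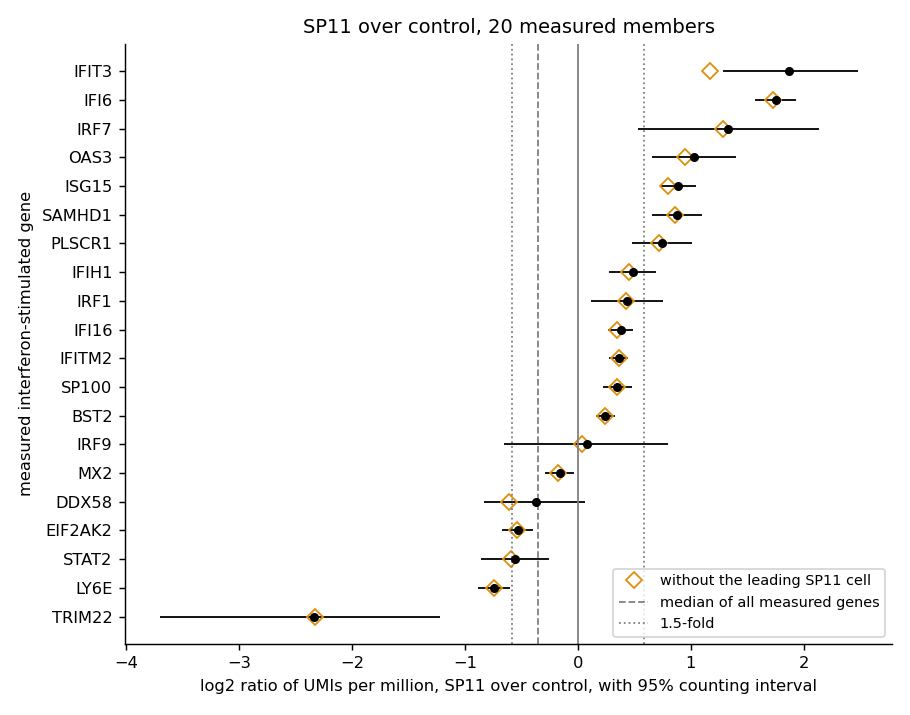
Each black point is the log2 of SP11 CPM divided by control CPM for 1 of the 20 measured members, and each bar its 95% counting interval; open diamonds leave out the SP11 cell with the most IFIT, OAS, ISG15 and IFI6 UMIs. IFIT3 (1.87) and IFI6 (1.75) lie at the high end and TRIM22 (-2.33) at the low end, and of the higher members IFIT3 moves most when that cell is left out.

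IFI6, a small membrane protein that restrains apoptosis and flavivirus replication, had the narrowest interval of the 4 log2 ratios above 1. It had 681 UMIs (71.7 CPM, 66.4 to 77.3) in SP11 cells, against 413 UMIs (21.3 CPM, 19.3 to 23.5) in control cells, a log2 ratio of 1.75 (1.57 to 1.93). A UMI of IFI6 was present in 38.5% of SP11 cells and 30.0% of control cells although the control cells held more UMIs per cell. With every cell thinned to 4400 UMIs, which kept 769 SP11 and 963 control cells, these shares were 19.8% (17.0 to 22.8) of SP11 and 10.3% (8.4 to 12.4) of control cells. The intervals of the thinned shares did not overlap.

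ISG15 is a ubiquitin-like protein that is attached to other proteins and is also released as a cytokine. It had 590 UMIs (62.1 CPM) in SP11 cells and 651 UMIs (33.6 CPM) in control cells, a log2 ratio of 0.89 (0.72 to 1.05). At 4400 UMIs per cell, 19.5% (16.8 to 22.5) of SP11 and 14.5% (12.4 to 16.9) of control cells had an ISG15 UMI, so the share differed less than the level, and these intervals just overlapped. ISG20, an exonuclease that degrades single-stranded RNA, had 14 UMIs in SP11 and 14 in control cells. The enzymes that attach and remove ISG15, UBA7, UBE2L6, HERC5 and USP18, ranged from -0.38 to 0.31 on the log2 scale, with 3 of the 4 intervals spanning 0. On library totals 0 of 4 passed 1.5-fold upward (10.7% of all genes) and 0 downward (38.4%). From the median of all genes as zero, 1 passed upward (22.5% of all genes) and 0 downward (24.3%).

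The IFIT proteins bind viral RNA that lacks the cap marks of host RNA. The 4 genes lie side by side on chromosome 10 and summed to 101 UMIs (10.6 CPM) in SP11 cells, against 62 UMIs (3.20 CPM) in control cells, a pooled log2 ratio of 1.73 (1.26 to 2.21). IFIT3 made up most of this sum with 70 UMIs in SP11 and 39 in control cells, a log2 ratio of 1.87 (1.29 to 2.48). IFIT1 had 18 UMIs in SP11 and 15 in control cells, IFIT2 had 9 and 1, and IFIT5 had 4 and 7. These counts lay in few cells of the SP11 library. IFIT1's 18 UMIs came from 9 SP11 cells, whereas the 15 control UMIs came from 15 cells, and IFIT2's 9 UMIs came from 4 SP11 cells. A single SP11 cell held 37 of the 101 IFIT UMIs, so the pooled ratio rested in part on that cell. No pooled ratio was computed without it. The same cell held 27 of the 70 IFIT3 UMIs, and without it IFIT3 had 43 UMIs and a log2 ratio of 1.17 (0.51 to 1.84). With cells thinned as for IFI6, 9 of 769 SP11 cells (1.17%) and 10 of 963 control cells (1.04%) had an IFIT3 UMI. The share of cells with IFIT3 was thus close to even, unlike the level.

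The OAS enzymes make 2′-5′ oligoadenylate on double-stranded RNA, which activates RNase L, and OASL lacks this activity. The 4 genes summed to 171 UMIs (18.0 CPM) in SP11 cells and 150 UMIs (7.74 CPM) in control cells, a pooled log2 ratio of 1.22 (0.89 to 1.54). OAS3 had 126 UMIs in each library, which at the lower depth of the SP11 library gave 13.3 CPM in SP11 and 6.50 CPM in control cells and a log2 ratio of 1.03 (0.66 to 1.40). Its UMIs were spread over 108 SP11 and 114 control cells, with at most 7 in an SP11 cell and 3 in a control cell. OAS1 had 25 UMIs in SP11 and 12 in control cells, OASL had 14 and 7, and OAS2 had 6 and 5. All 4 OAS genes thus had a higher CPM in SP11 cells, 3 of them from 37 UMIs or fewer in all.

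The MX and GBP proteins are interferon-induced GTPases. MX2, which blocks nuclear entry of HIV-1, was close to even, with 714 UMIs (75.2 CPM) in SP11 and 1627 UMIs (84.0 CPM) in control cells and a log2 ratio of -0.16 (-0.29 to -0.03). MX1, which blocks influenza and other RNA viruses and is a commonly used marker of type I interferon signalling, had 7 UMIs in SP11 and 37 in control cells. MX1 therefore lay on the other side from IFIT3 and IFI6. GBP1 had 0 UMIs in both libraries and GBP2 had 1 UMI, in an SP11 cell. GBP1 and GBP2 are strongly induced by interferon gamma.

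The membrane proteins summed to 441 CPM in SP11 and 405 CPM in control cells, a log2 ratio of 0.12 (0.07 to 0.18). BST2, or tetherin, which holds budding virions on the cell surface, had 1903 UMIs (200 CPM) in SP11 and 3278 UMIs (169 CPM) in control cells, a log2 ratio of 0.24 (0.16 to 0.33). IFITM2, which hinders virus fusion in endosomes, had 1771 UMIs (186 CPM) in SP11 and 2814 UMIs (145 CPM) in control cells, a log2 ratio of 0.36 (0.27 to 0.45). IFITM3 had 1 UMI in SP11 and 0 in control cells and IFITM1 had 0 and 1. IFITM2 and IFITM3 are near-identical copies, so how reads were divided between these is uncertain. LY6E, a surface protein that hinders coronavirus entry, went the other way with 517 UMIs (54.4 CPM) in SP11 and 1761 UMIs (90.9 CPM) in control cells, a log2 ratio of -0.74 (-0.88 to -0.60). Measured from the median of all genes LY6E stood at -0.39, which is under 1.5-fold. Ratios of all genes tended to fall with intronic length, however. In 20 bins the median was -0.20 at the least intronic length, 0.12 in the next bin and -1.02 at the greatest. In the bin of LY6E, a gene with little intronic sequence, the median was 0.10. With this intronic trend subtracted LY6E stood at -0.84, which is past 1.5-fold.

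The sensors of foreign nucleic acid included members on both sides. Together these summed to 213 CPM in SP11 and 207 CPM in control cells, a log2 ratio of 0.04 (-0.04 to 0.12). On library totals 0 of the 4 passed 1.5-fold upward (10.7% of all genes) and 0 downward (38.4%). From the median gene 2 passed upward (22.5% of all genes) and 0 downward (24.3%). IFIH1, or MDA5, which senses long double-stranded RNA, had 325 UMIs (34.2 CPM) in SP11 and 473 UMIs (24.4 CPM) in control cells, a log2 ratio of 0.49 (0.28 to 0.69). IFI16, a sensor of DNA, had 1051 UMIs (111 CPM) in SP11 and 1650 UMIs (85.2 CPM) in control cells, a ratio of 0.38 (0.26 to 0.49). DDX58, or RIG-I, which senses short RNA with a 5′ triphosphate, had 59 UMIs in SP11 and 156 in control cells, a ratio of -0.37 with an interval that spanned 0 (-0.83 to 0.07). Without the SP11 cell that held 27 IFIT3 UMIs, DDX58 stood at -0.61 (-1.10 to -0.14). EIF2AK2, or PKR, which stops translation on double-stranded RNA, had 586 UMIs (61.7 CPM) in SP11 and 1726 UMIs (89.1 CPM) in control cells, a ratio of -0.53 (-0.67 to -0.39). Measured from the median of all genes EIF2AK2 stood at -0.18, and with the intronic trend subtracted at -0.15.

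The transcription factors of the response summed to 33.9 CPM in SP11 and 34.0 CPM in control cells. IRF7, which amplifies type I interferon production, had 32 UMIs in SP11 and 26 in control cells, a log2 ratio of 1.33 with a wide interval (0.54 to 2.13). IRF1, the interferon gamma-induced activator, had 140 UMIs (14.7 CPM) in SP11 and 211 UMIs (10.9 CPM) in control cells, a ratio of 0.44 (0.12 to 0.75). Of the complex that binds the ISRE, STAT2 had 124 UMIs (13.1 CPM) in SP11 and 371 UMIs (19.1 CPM) in control cells, a ratio of -0.55 (-0.86 to -0.26). IRF9 had 26 UMIs in SP11 and 50 in control cells, a ratio of 0.08 (-0.66 to 0.80). Measured from the median of all genes STAT2 stood at -0.20, and with the intronic trend subtracted at -0.51, both under 1.5-fold.

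Among the other members IFI6, described above, SAMHD1 and PLSCR1 passed 1.5-fold upward and TRIM22 downward. SAMHD1, which lowers the cell's supply of deoxynucleotides and is high in myeloid cells, had 315 UMIs (33.2 CPM) in SP11 and 350 UMIs (18.1 CPM) in control cells, a log2 ratio of 0.88 (0.65 to 1.10). PLSCR1, a phospholipid scramblase, had 220 UMIs (23.2 CPM) in SP11 and 268 UMIs (13.8 CPM) in control cells, a ratio of 0.74 (0.48 to 1.01). SP100, a component of PML nuclear bodies, had 774 UMIs (81.5 CPM) in SP11 and 1239 UMIs (63.9 CPM) in control cells, a ratio of 0.35 (0.22 to 0.48). TRIM22, an antiviral ubiquitin ligase, had 7 UMIs in SP11 and 72 in control cells, a ratio of -2.33 (-3.70 to -1.22). TRIM22 was thus the lowest of the measured members, and the control UMIs were spread over 67 cells.

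The remaining members of this group were scarce. IFI27, a mitochondrial protein, had 9 UMIs in SP11 and 29 in control cells, IFI35 had 24 in each library, IFI44 had 1 UMI in an SP11 cell, and IFI44L had 0 in both. Over all 16 members below the minimum, 133 UMIs (14.0 CPM, 11.7 to 16.6) in SP11 stood against 152 UMIs (7.85 CPM, 6.65 to 9.20) in control cells, a pooled log2 ratio of 0.84 (0.49 to 1.18). This sum joined members on both sides, since MX1 and IFI27 were lower and OAS1 and IFIT2 higher in SP11 cells. GBP1 and IFI44L were not detected at this depth in either library. IFI44, MX1 and IFIT1 held few UMIs, with IFIT1 higher in SP11 cells (1.89 against 0.774 CPM) and MX1 lower (0.737 against 1.91 CPM).

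**Figure D2:**
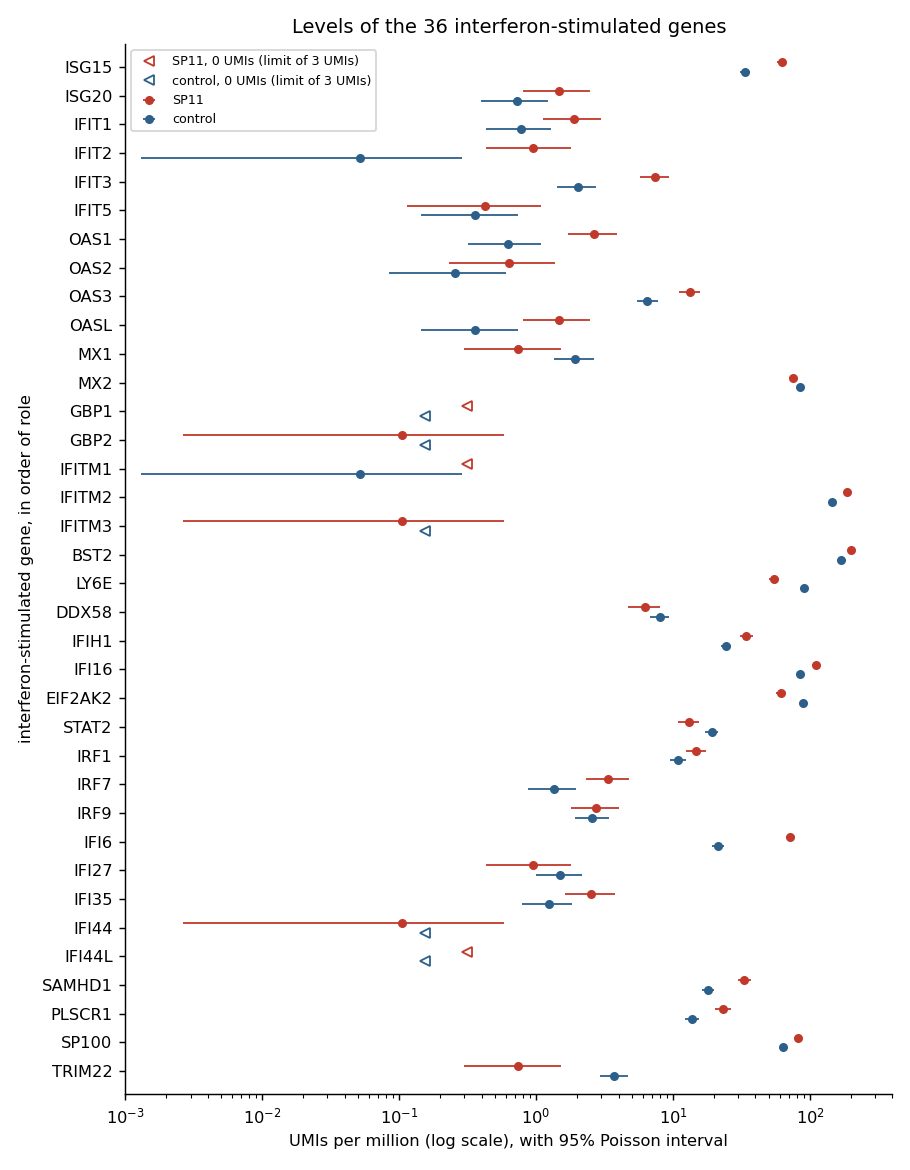
CPM (log scale) of all 36 members in SP11 (red, upper point) and control cells (blue, lower point), with 95% Poisson intervals; open triangles mark 0 UMIs, drawn at the level of 3 UMIs (0.316 CPM for SP11 and 0.155 CPM for control). IFI6 stands at 71.7 CPM in SP11 and 21.3 CPM in control cells, and GBP1 and IFI44L at 0 in both.

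The genes around the response were read from lists of the pathway. None of the 21 interferon genes, alpha, beta, gamma and lambda included, had a UMI in either library. Counts below are given on library totals and then from the median gene as zero. Of all measured genes, 10.7% passed upward and 38.4% downward on totals, and 22.5% and 24.3% from the median gene. Of 5 measured receptor genes 0 passed 1.5-fold upward and 2 downward (2 and 0 from the median gene), IFNGR1 at -0.83 (-1.05 to -0.61) and IFNAR2 at -0.62 (-0.75 to -0.49), while IFNAR1, the signalling partner of IFNAR2, was at 0.15 (0.01 to 0.29), IL10RB at 0.32 and IFNGR2 at 0.34. JAK2, the kinase of the interferon gamma receptor, was at -1.07 (-1.39 to -0.77), JAK1 at -0.12, TYK2 at -0.02 and STAT3 at -0.19. Of 14 measured genes that lead to interferon production, 2 passed 1.5-fold upward, IKBKE at 1.29 and IRF5 at 0.93, and 3 downward (4 and 1 from the median gene), IRF8 at -0.99, TRAF6 at -0.78 and CGAS at -0.69. TMEM173, which encodes STING, was at 0.37. Of 7 measured inhibitors of the pathway 0 passed 1.5-fold upward and 2 downward (2 and 0 from the median gene), TRIM21 at -0.83 and IRF2 at -0.71, and the highest were PTPN6 at 0.54, PTPN1 at 0.28 and PTPN2 at 0.21, with PTPN11 at -0.46.

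A longer list held 62 other interferon-induced genes. Of its 44 measured genes, 8 passed 1.5-fold upward (10.7% of all genes) and 9 downward (38.4%), with a median log2 ratio of -0.05. From the median gene 15 passed upward (22.5% of all genes) and 6 downward (24.3%), and 28 of the 44 lay above it. Its high end held CCL2, a monocyte chemokine, with 2092 UMIs in SP11 and 285 in control cells (3.90, 3.73 to 4.09), CXCL10, a chemokine for activated T cells, with 63 and 10 (3.68, 2.71 to 4.81), and IFI30, a lysosomal thiol reductase of antigen-presenting cells, with 3368 and 1060 (2.70, 2.60 to 2.80). Its low end held CIITA, the master activator of MHC class II genes, with 3 UMIs in SP11 and 103 in control cells (-4.07, -6.37 to -2.49), TAP2, a peptide transporter, at -1.63, and DDX60L at -1.27. RSAD2, or viperin, an antiviral gene usually induced with the IFIT genes, had 10 UMIs in SP11 and 48 in control cells (-1.23, -2.38 to -0.23). Over all pathway lists, 79 genes were measured with a median of -0.10, and 10 passed upward and 17 downward, against 10.7% and 38.4% of all genes. From the median gene 24 passed upward and 8 downward, against 22.5% and 24.3% of all genes.

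The share of cells with members was read at equal depth. With every cell thinned to 4400 UMIs, 89.2% (86.8 to 91.3) of SP11 cells and 88.1% (85.8 to 90.0) of control cells had UMIs of 2 or more measured members, a share near its ceiling. With every cell thinned to 2000 UMIs it was 54.7% of SP11 and 45.9% of control cells. At 4400 UMIs both medians were 3 measured members and 4 member UMIs per cell. Without thinning the shares were 94.7% of SP11 and 93.6% of control cells. BST2 was found in 54.9% of thinned SP11 and 52.9% of thinned control cells, IFITM2 in 54.0% and 48.1%, and IFI16 in 35.4% and 29.4%. The share was lower in SP11 cells for LY6E, at 21.8% against 30.3% of control cells, for MX2 at 27.8% against 33.0%, and for EIF2AK2 at 24.1% against 29.5%. No cell type that should lack these genes was present, so the share that free RNA gives could not be measured.

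**Figure D3:**
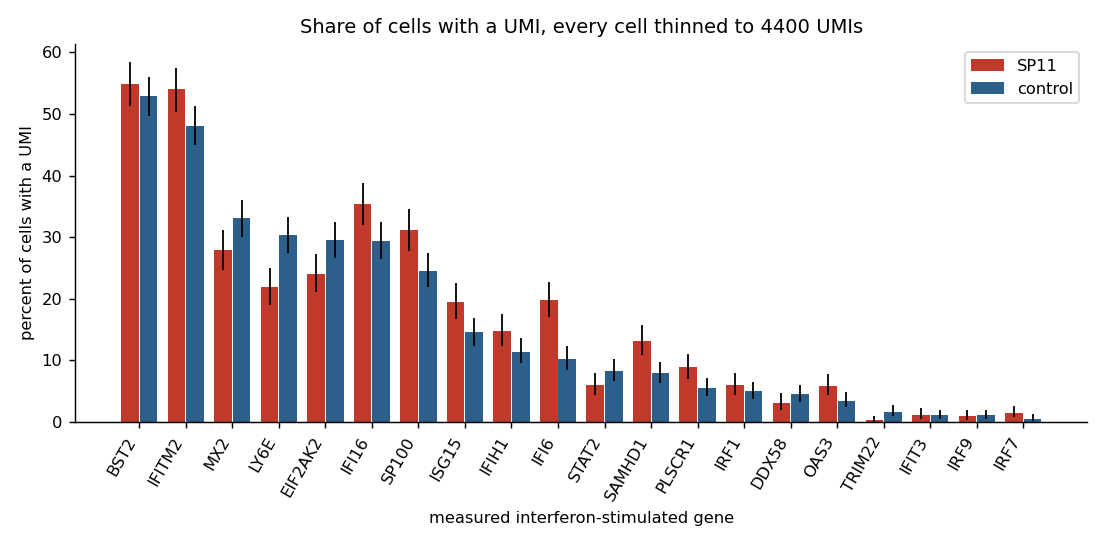
Percent of cells with a UMI of each measured member after thinning every cell to 4400 UMIs, for 769 SP11 (red, left) and 963 control cells (blue, right); bars start at 0 and error bars are exact 95% binomial intervals. IFI6 differs most clearly, at 19.8% of SP11 and 10.3% of control cells.

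The upper tail of cells differed between the libraries. Of the thinned cells, 10 of 769 SP11 cells (1.30%, 0.63 to 2.38) had 8 or more of the 20 measured members, against 0 of 963 control cells, which allows a share of up to 0.382%. The highest number was 12 in SP11 and 7 in control cells, and the most member UMIs in a thinned cell were 30 in SP11 and 13 in control cells. The shares with 5 or more members were 24.7% (21.7 to 27.9) of SP11 and 21.0% (18.4 to 23.7) of control cells, with intervals that overlapped.

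**Figure D4:**
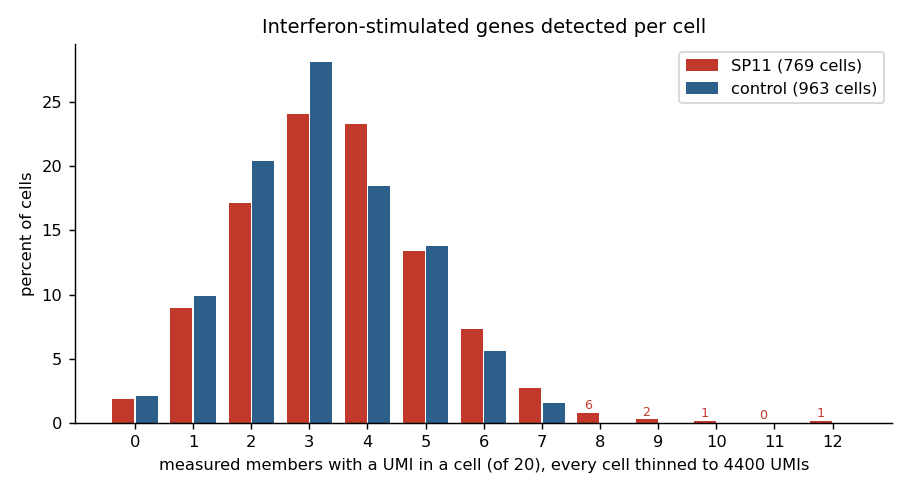
Percent of cells by the number of measured members with a UMI, after thinning to 4400 UMIs, for SP11 (red, left) and control cells (blue, right); the small numbers over the bars from 8 up count SP11 cells. Both distributions centre on 3, and only SP11 cells reach 8 or more (10 of 769).

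The spread over cells was widest for ISG15, IFI6 and IFIT3. A variance over mean of 1 is what random counting gives. In thinned SP11 cells this ratio was 1.95 for IFI6, 1.77 for ISG15 and 3.12 for IFIT3, against 0.916, 1.02 and 1.17 in thinned control cells. No other measured member exceeded 1.2 in either library. For ISG15 30 thinned SP11 cells had 2 or more UMIs, against 12 control cells, and for IFI6 39 SP11 cells did, against 1 control cell. The value for IFIT3 rested on 1 cell, without which it was 0.99, whereas ISG15 (1.73) and IFI6 (1.95) kept theirs.

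That cell had 27186 UMIs and 5229 genes, was not called a doublet by Scrublet and had a barcode found in the SP11 library alone. It held UMIs of 25 of the 36 members, 191 member UMIs in all (7026 CPM): 36 of ISG15, 27 of IFIT3, 24 of IFI16, 13 of IFI6, 9 of DDX58, 9 of IFIH1, 7 of OAS3, 6 of IFIT1, 5 of OASL, 3 of IFIT2 and 3 of OAS1. It also held 38 of the library's 63 CXCL10 UMIs. Beside these it had 186 UMIs of S100A8 and 140 of LYZ, both myeloid genes. Without it 7 members were at least 1.5-fold higher, beside 10.7% of all genes, and 4 lower, beside 38.5%, with the median of all genes at -0.35. STAT2 (-0.60) and DDX58 then also passed 1.5-fold downward on library totals. ISG15 was at 0.80 (0.63 to 0.97), IFI6 at 1.73 (1.55 to 1.91) and CXCL10 at 2.35 (1.25 to 3.58). The control cell with the most UMIs of these families held 49 member UMIs of 18 members, with 9 of ISG15 and 3 of IFIT3.

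The 5% of cells with the most member UMIs per total were chosen by these counts, so the members' own values in those cells are descriptions. In SP11 these 43 cells held 11.7% (11.1 to 12.4) of all member UMIs and 4.22% of all UMIs, and in control 53 cells held 4.16% (3.87 to 4.47) of member UMIs and 2.26% of all UMIs. The control cells chosen were shallow, with a median of 4946 UMIs against 9583 in the SP11 cells chosen. At 4400 UMIs per cell the same shares were 13.1% (12.05 to 14.3) in SP11 and 11.4% (10.4 to 12.4) in control cells, so most of the gap was absent at equal depth. The IFIT genes stood at 177 CPM in the SP11 cells chosen and 3.30 CPM in the other SP11 cells, against 15.99 and 2.90 CPM in the same split of control cells. Of the 71 IFIT UMIs in the SP11 cells chosen, 37 came from the cell described above, and 91.0 CPM remained without it. This split was made at unequal depth. For IFI6 these values were 401 and 57.2 CPM in SP11 cells, against 27.4 and 21.2 CPM in control cells. IFITM2 stood at 229 and 185 CPM in SP11 and 226 and 143 CPM in control cells.

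The SP11 cells with the most member UMIs were also rich in monocyte and macrophage RNA. Outside the members, the genes with the highest ratio of these 43 cells to the other SP11 cells were CXCL10 (34.5-fold), TDO2 (14.8), ATP6V0D2 (13.8), S100A8 (7.97), S100A9 (6.94), TYROBP (6.41), HMOX1 (6.14), MMP9 (6.11), MMP1 (5.64) and FCN1 (5.38). All 38 CXCL10 UMIs of the 43 cells came from the cell described above, and 115 of their 178 TDO2 UMIs from 1 other cell, with 7 of the 43 cells holding any TDO2. S100A8 was found in 24 of the 43 cells. The 30 monocyte or macrophage markers summed to 6970 CPM in these cells, with 5 genes at 0, and 2395 CPM in the other SP11 cells, with 4 at 0. Without the cell described above the first value was 6048 CPM. In the control library the same split gave 1700 CPM, with 9 at 0, and 1130 CPM, with 4 at 0. Granulocyte precursor markers did not follow, at 1057 CPM in the chosen SP11 cells and 1253 CPM in the others. Whether these markers account for the members' levels was not tested. Without the top 5% of cells of each library, IFI6 stood at 1.43, ISG15 at 0.46 and IFIT3 at 0.51, and OAS3 at 0.88 and SAMHD1 at 0.84.

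Each library was clustered on its own, and the level of IFI6 and ISG15 was read in the clusters. Clusters of 1 library are not replicates, and the genes used for clustering included members. IFI6 ranged from 55.1 to 333 CPM over the 6 SP11 clusters and from 16.4 to 24.2 CPM over the 6 control clusters, with no overlap of these values. ISG15 ranged from 48.1 to 179 CPM over the SP11 clusters and from 21.7 to 41.1 CPM over the control clusters, again with no overlap. Control cluster 5, with 76 shallow cells, held 3 ISG15 and 2 IFI6 UMIs, so its interval was wide. The cells of the upper tail were kept in these clusters. SP11 cluster 5, with 20 cells led by ATP6V0D2, SLC26A11 and TDO2, was at the top for both genes and had 13238 CPM of monocyte or macrophage markers, against 1758 to 3784 CPM in the other SP11 clusters. Without cluster 5, IFI6 was at 1.58 and ISG15 at 0.80. IFIT3 had 32 UMIs in SP11 cluster 3, of which 27 came from the cell described above.

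**Figure D5:**
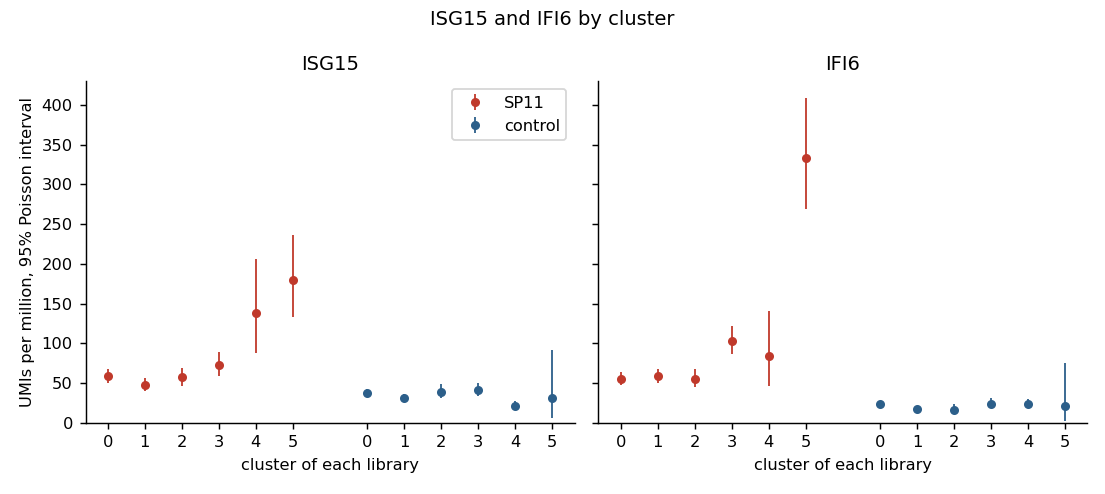
CPM of ISG15 (left panel) and IFI6 (right panel) in each cluster of the SP11 (red, left) and control library (blue, right), with 95% Poisson intervals; cluster numbers are not matched between libraries. Every SP11 point lies above every control point for both genes, though some of their intervals overlap. SP11 cluster 5 (20 cells) is highest, with 179 CPM of ISG15 and 333 CPM of IFI6.

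IFI6 and ISG15 were higher in SP11 cells in each cell cycle phase assigned. IFI6 stood at 91.8 CPM in G1, 58.1 in S and 68.0 in G2M cells of SP11, against 21.9, 22.3 and 20.1 CPM in control cells. ISG15 stood at 78.1 CPM in G1, 58.1 in S and 55.1 in G2M cells of SP11, against 35.6, 39.7 and 26.8 CPM in control cells. All members together gave 1176 CPM in G1, 1043 in S and 1024 in G2M cells of SP11, against 944, 929 and 849 CPM in control cells.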

How the data were processed

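The authors deposited UMI counts for each gene and barcode of 1 SP11 and 1 control library, made with Cell Ranger 7.1.0 against GRCh38 (hg38), for 36601 genes. The sources used here do not give whether intronic reads were counted or strand was used, and counts of members that overlap other genes may include reads of these (11 members on the same strand in GENCODE: IFIT2, IFIT3, GBP2, IFITM1, IFITM2, DDX58, STAT2, IRF9, IFI6, SP100 and TRIM22; 21 members on the opposite strand). The deposited barcodes numbered 864 for SP11 and 1076 for control cells. Barcodes with at least 200 genes and at most 20% mitochondrial UMIs were kept, the filter the study states, which left 852 SP11 and 1053 control cells. Both numbers lie above those the study gives after filtering. The study describes replicates of the experiment, and 1 library per condition was analysed here.

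UMIs were summed per library and scaled to CPM. Log2 ratios carry Clopper-Pearson intervals of the split of a gene's UMIs, CPM exact Poisson intervals and shares exact binomial intervals, all at 95%. UMIs were not scaled by gene length, so levels were not compared between genes. Shares of cells were taken after thinning each cell once to 4400 UMIs (seed 1), which left out 83 SP11 and 90 control cells. Doublets were called with Scrublet in scanpy 1.11.5 (28 SP11 and 23 control cells) and kept. Each library was clustered and phased with Seurat 5.3.0 (2000 variable features, 10 principal components, resolution 0.5). TMM factors came from edgeR 4.0.16 and size factors from DESeq2 1.42.0. Intronic lengths came from GENCODE 44, and promoter windows ran from 250 bases before to 50 bases after each RefSeq start. The ratio and thinning steps were tested on simulated data.

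All 36 members are named. Of each pathway list, up to 3 measured genes from each end of the ratio are named, and RSAD2, S100A8 and LYZ were named after their values were seen. A gene of the pathway lists is not reported here. The 10 genes of the member-rich cells had at least 20 UMIs there. The members, lists and tests were chosen with earlier results of these data known. Clusters, phases and the cell left out alone were examined after the values were seen.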

Additional observations from a re-analysis of the deposited data

How the results depend on the processing

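With 1 library per condition the values cover counting error alone. No paired analysis was possible because each condition has 1 library. Of the 20 single-gene log2 ratios, none of the 9 past 1.5-fold changed sign under the settings run, which were 16 for most genes, 15 for IFIT3 and TRIM22 and 14 for IRF7, where a setting left too few UMIs. MX2 and DDX58 were below 0 with totals and above it under some settings (up to 0.19 with DESeq2 size factors for MX2, and 0.12 for DDX58 with the intronic trend subtracted), and IRF9 stood at -0.13 without the 5% of cells richest in member UMIs.

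The median log2 ratio of the measured members was 0.69 with TMM, 0.72 with DESeq2 size factors and 0.86 after subtracting the trend with intronic length. The median of all genes, -0.35 with totals, was -0.03 with TMM. Members at least 1.5-fold higher numbered 12 with TMM (21.5% of all genes), 13 with DESeq2 size factors (22.5%), 11 with the intronic trend subtracted (17.7%), 12 of 27 with a minimum of 20 UMIs (11.0%) and 4 of 19 without the richest 5% of cells (10.7%), which leaves out IRF7. Members at least 1.5-fold lower numbered 1 with TMM (25.0% of all genes), 1 with DESeq2 size factors (24.3%) and 5 of 19 without the richest 5% (38.3%). With the intronic trend subtracted they numbered 2 (23.1%), LY6E and TRIM22. With a minimum of 20 UMIs they numbered 4 of 27 (41.3%), and with a minimum of 200 UMIs 1 of 16 (33.7%). Without the SP11 cell that held 27 IFIT3 UMIs they numbered 4 (38.5%). The pooled log2 ratio was 0.57 with TMM, 0.59 with DESeq2 size factors, 0.19 without mitochondrial genes in the totals and 0.16 without the richest 5%. For the members below the minimum it was 1.19 with DESeq2 size factors, 1.35 with equal weight for every cell, 0.46 without the richest 5% and 1.68 with a minimum of 20 UMIs, which leaves 9 members.

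Cells with 2 or more measured members made up 54.7% of SP11 and 45.9% of control cells at 2000 UMIs, 98.5% and 98.7% at 8000 UMIs and 94.7% and 93.6% without thinning, and 85.6% of control cells over all barcodes. The share of member UMIs in the top cells was 3.55% of SP11 and 0.441% of control for the top 1%, and 18.1% and 10.4% for the top 10%. For the top 5% it was 14.9% and 13.7% at 2000 UMIs, 13.1% and 11.4% at 4400 UMIs and 12.6% and 9.69% at 8000 UMIs. The settings without that cell, cluster 5 or shared barcodes, and the top 5% at 4400 UMIs, were chosen after seeing the data. The causes of these changes were not tested. The 16 members below the minimum limit what can be read from single genes.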
